A study of Rattus norvegicus with 6 samples.

Results

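The circadian clock genes described here are Clock, Arntl, Per1, Per2, Per3, Cry1, Cry2, Nr1d1, Nr1d2 and Dbp, chosen by gene symbol as a list of 10, and all 10 were among the 12121 genes with deposited counts. Tef, an output gene related to Dbp, was added for comparison. RNA had been sequenced from C6 cells, an established rat glioma line, in 3 libraries of cells overexpressing Aqp1 (C6-AQP1) and 3 libraries of control cells without the overexpression (C6 control). Aqp1 encodes a water channel of the plasma membrane, and the methods place it under the CMV promoter of a vector that also carries copGFP and a puromycin resistance gene. Whether the sequenced control cells held the empty vector, whether the C6-AQP1 line was 1 clone, and the hour of collection or any synchronization of the cultures are not given in the sources used here. Separate cultures behind the 3 libraries of a group are not stated either. The p-values therefore cover only library-to-library spread, and that spread may be technical.

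The mammalian clock is a feedback loop of transcription. The proteins CLOCK and BMAL1, the latter encoded by Arntl, pair and activate genes through E-boxes, and among these genes are the Per and Cry repressors, whose proteins act back on the pair. In the second loop the receptors encoded by Nr1d1 and Nr1d2 (REV-ERB alpha and beta) repress Arntl through ROR elements, which the ROR receptors use for activation. Dbp and Tef encode PAR bZIP factors that carry the rhythm to genes with D-boxes. Astrocytes and glioma cells are among the cells known to hold such a clock.

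The promoters below are shown because they carry the elements through which the loop is read, upstream of clock genes that were measured here. RefSeq (GRCr8) gave a window for 10 of the 11 genes, and not for Cry1. The 250 bases before the transcription start were searched on both strands for the E-box CACGTG, the E-prime box CACGTT, the D-box TTANGTAA, ROR elements (TAGGTCA or TGGGTCA with an A that stands 3 bases ahead), and the cAMP response element (CRE) TGACGTCA. These motifs do not contain each other, and each match is a description of letters, not of a bound site. The Per2 window (chr9:99496994-99497243, minus strand) held an E-prime box and a D-box, the Cry2 window (chr3:98860438-98860687, minus strand) an E-prime box on the opposite strand, and the Tef window (chr7:115206577-115206826, plus strand) an E-box. Nr1d1 has a pair of starts, of which the downstream one (chr10:84229455-84229704, minus strand) had an E-box and the upstream one an E-prime box, and the Arntl window, listed under Bmal1 (chr1:176766078-176766327, plus strand), had a ROR element. Each sequence is printed 5′ to 3′ along its gene, with the matches in capitals.
Per2: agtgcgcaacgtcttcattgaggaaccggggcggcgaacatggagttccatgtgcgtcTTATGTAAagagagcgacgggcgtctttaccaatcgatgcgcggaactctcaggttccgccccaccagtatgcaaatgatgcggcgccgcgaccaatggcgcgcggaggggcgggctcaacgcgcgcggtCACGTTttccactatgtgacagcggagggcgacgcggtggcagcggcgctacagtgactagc
Cry2: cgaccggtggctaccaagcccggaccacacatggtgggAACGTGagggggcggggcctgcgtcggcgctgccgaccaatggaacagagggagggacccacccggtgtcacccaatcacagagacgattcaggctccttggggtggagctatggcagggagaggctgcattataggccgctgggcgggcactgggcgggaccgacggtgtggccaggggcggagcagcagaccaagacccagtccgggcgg
Nr1d1: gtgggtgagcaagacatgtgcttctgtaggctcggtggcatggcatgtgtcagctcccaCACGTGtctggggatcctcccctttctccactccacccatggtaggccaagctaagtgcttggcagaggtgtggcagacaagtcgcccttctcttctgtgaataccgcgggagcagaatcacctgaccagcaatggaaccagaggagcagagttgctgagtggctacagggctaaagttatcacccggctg
Tef: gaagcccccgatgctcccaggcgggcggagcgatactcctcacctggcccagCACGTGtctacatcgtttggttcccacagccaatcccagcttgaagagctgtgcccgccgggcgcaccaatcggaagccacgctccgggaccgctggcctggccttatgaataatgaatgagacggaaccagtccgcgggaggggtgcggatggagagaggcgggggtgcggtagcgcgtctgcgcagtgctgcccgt
Arntl: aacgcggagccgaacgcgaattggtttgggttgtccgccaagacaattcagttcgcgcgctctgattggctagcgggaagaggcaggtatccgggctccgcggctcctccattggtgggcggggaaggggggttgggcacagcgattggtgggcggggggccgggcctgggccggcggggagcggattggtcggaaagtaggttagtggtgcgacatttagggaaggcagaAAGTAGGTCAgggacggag

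Among all 33469 promoter windows of the same length, 5.59% held the E-box, 4.07% the E-prime box and 2.04% the D-box. The ROR elements with TAGGTCA and TGGGTCA were in 0.586% and 0.804% of them, and the CRE was in 1.59%. In Arntl the ROR element began 19 bases before the start, and in Per2 the E-prime box and the D-box began 62 and 192 bases before it. The E-boxes of Nr1d1 and Tef began 191 and 198 bases before their starts, and the E-prime boxes of Cry2 and Nr1d1 212 and 174 bases before theirs. The windows of Clock, Per1, Per3, Nr1d2 and Dbp held none of the searched letters. Such sites can also lie outside a window of this length.

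Depth and identity of the libraries were as follows. Totals ranged from 19054244 to 52725870 expected counts, and replicate 1 had the lowest total in each group. Values are given as normalized CPM (counts scaled to library size with TMM factors), with 3 libraries in every group. Aqp1 stood at 349 ± 2.48 normalized CPM in the controls and at 1058 ± 5.81 in C6-AQP1 (SD, n = 3). All 6 astroglial and C6 markers were measured, with summed levels of 4673 to 4806 normalized CPM in the control libraries and 6438 to 6690 in the C6-AQP1 libraries. Their changes were unequal, since Gfap had 14.0 ± 0.0652 normalized CPM in the controls and 167 ± 6.72 in C6-AQP1 (SD, n = 3) and Cspg4, which encodes the NG2 proteoglycan, had a log2FC of 0.07 (edgeR adjusted p = 0.020) with groups that overlapped. Of the 6, Vim had the highest level, with 2001 ± 26.2 normalized CPM in the controls and 3249 ± 99.2 in C6-AQP1 (SD, n = 3). Slc1a3 was low, with 1.60 ± 0.146 and 3.51 ± 0.323, and hardly enters the sum. None of 5 microglial and none of 5 endothelial markers was among the genes analysed here. Of 5 neuronal markers, Map2, Snap25 and Tubb3 were measured, with sums of 84.9 to 88.3 and 257 to 263 normalized CPM. Map2 carried the sum, with 81.8 ± 1.49 and 254 ± 2.96 normalized CPM, while Snap25 had 0.241 ± 0.109 and 1.91 ± 0.348 and Tubb3 4.92 ± 0.299 and 5.41 ± 0.347 (SD, n = 3), the last with groups that overlapped (edgeR adjusted p = 0.23). The part of these markers in the results below was not tested.

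Most of the listed clock genes had more RNA in C6-AQP1 cells than in control cells. Of the 10 members, 9 rose and 1, Cry1, fell at an adjusted p under 0.05, and 4 of the rises (Per1, Per3, Cry2 and Dbp) were above 2-fold. Over all 12121 genes, 40.8% rose and 40.7% fell by the same test, and 9.74% of all genes rose above 2-fold while 4.35% fell by as much. Log2 fold changes (log2FC) are C6-AQP1 over control, with the standard error (SE) and the adjusted p of edgeR's quasi-likelihood fit. The median log2FC was 0.88 over the 10 members and 0.00 over all genes, whose middle part between the 25th and the 75th percentile ran from -0.40 to 0.47. In 9 members the lowest C6-AQP1 library exceeded the highest control and in Cry1 the highest was under the lowest control, beside 41.3% of all genes without overlap in each direction. The libraries average over all cells of a culture, so a change in the number of cells that express a gene and in its RNA per cell cannot be told apart.

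**Figure D1:**
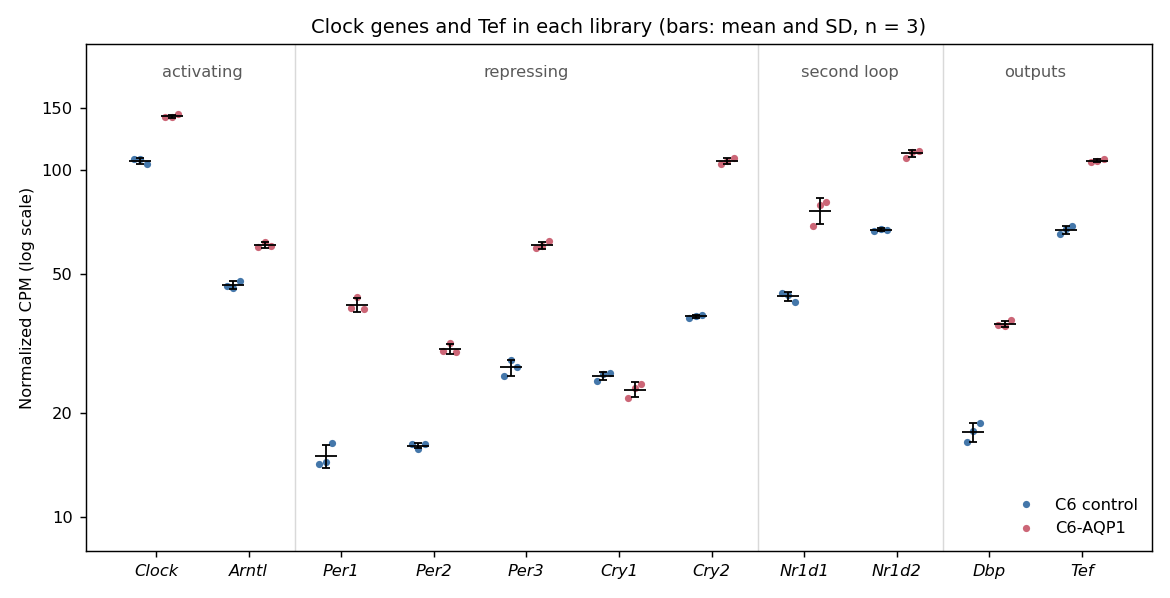
Normalized CPM (log scale) of the 10 clock genes and Tef in each library, ordered by role, with blue points for C6 control, red points for C6-AQP1, and black bars for the mean and SD of 3 libraries. The red points lie above the blue ones for every gene but Cry1, where they lie just below, and heights should not be compared between genes because CPM is not divided by transcript length.

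The activating genes had the smallest of the 9 rises. Clock (ENSRNOG00000002175), the bHLH-PAS partner of BMAL1, had 107, 107 and 104 normalized CPM in C6 control replicates 1 to 3 and 142, 142 and 144 in C6-AQP1 replicates 1 to 3. The libraries of a group were close together and the groups did not overlap. This gave a log2FC of 0.43 ± 0.03 (SE, edgeR adjusted p = 1.1e-12). Arntl (ENSRNOG00000014448), which encodes BMAL1, had 46.4, 45.6 and 48.0 normalized CPM in the controls and 60.1, 62.1 and 60.3 in C6-AQP1. Its groups were likewise apart, with a log2FC of 0.38 ± 0.04 (SE, edgeR adjusted p = 1.5e-09). Both changes lie within the middle part of all genes, since 26.6% of all genes had a higher log2 fold change than Clock and 28.8% a higher one than Arntl.

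The Per genes, which encode the PERIOD repressors, all rose. Per1 (ENSRNOG00000007387), which is also an early gene of cAMP and serum signalling, had 14.3, 14.4 and 16.4 normalized CPM in the controls and 39.9, 43.0 and 39.8 in C6-AQP1. Even the lowest C6-AQP1 library was far above the highest control, and the log2FC was 1.44 ± 0.06 (SE, edgeR adjusted p = 7.8e-16). For Per3 (ENSRNOG00000018413), the family member that is least needed for the rhythm in mice, the controls had 25.5, 28.4 and 27.1 normalized CPM and the C6-AQP1 libraries 59.4, 60.2 and 62.2. This was a log2FC of 1.16 ± 0.04 (SE, edgeR adjusted p = 1.3e-16). Per2 (ENSRNOG00000020254), the member with the E-prime box and the D-box shown above, went from 16.2, 15.7 and 16.3 to 30.1, 31.7 and 29.8 normalized CPM. Its groups were as clearly apart, but at a log2FC of 0.93 ± 0.05 (SE, edgeR adjusted p = 3.6e-13) it stayed under 2-fold.

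The Cry genes, which encode the cryptochrome repressors, went in opposite directions. Cry2 (ENSRNOG00000007478) had 37.5, 37.9 and 38.1 normalized CPM in the controls and 104, 106 and 108 in C6-AQP1. Its log2FC of 1.48 ± 0.03 (SE, edgeR adjusted p = 1.7e-20) was the largest of the 10 members, and 5.40% of all genes had a higher one. Cry1 (ENSRNOG00000006622) had 24.7, 25.8 and 26.1 normalized CPM in the controls and 22.0, 23.6 and 24.2 in C6-AQP1. The highest C6-AQP1 library came close to the lowest control without reaching it, and the log2FC was -0.13 ± 0.05 (SE, edgeR adjusted p = 0.024). The fall of Cry1 is small and its call depends on the setting. It was lost in 6 of 15 alternatives, DESeq2 (adjusted p = 0.077) among them, with adjusted p between 0.017 and 0.17 over all of them, and it ended without C6 control replicate 2 (adjusted p = 0.092), without C6 control replicate 3 (adjusted p = 0.10) and without C6-AQP1 replicate 1 (adjusted p = 0.078), all from edgeR.

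Both REV-ERB genes of the second loop rose. Nr1d1 (ENSRNOG00000009329) had 44.2, 43.7 and 41.7 normalized CPM in the controls and 68.7, 79.4 and 80.5 in C6-AQP1. The shallow C6-AQP1 replicate 1 stood below the other C6-AQP1 libraries, yet above all controls. The log2FC was 0.84 ± 0.05 (SE, edgeR adjusted p = 3.9e-08), and 0.89 without that library. Nr1d1 shares its 3′ end with Thra, the thyroid hormone receptor alpha gene, which runs the other way and overlaps it by 1061 bases in RefSeq. The counting is not stated to use strand, and Thra itself went from 55.5 ± 1.49 to 81.1 ± 1.01 normalized CPM (SD, n = 3), so the reads of this stretch cannot be told apart. Nr1d2 (ENSRNOG00000046912), REV-ERB beta, went from 66.5, 67.7 and 67.2 to 108, 113 and 113 normalized CPM. Its log2FC of 0.73 ± 0.03 (SE, edgeR adjusted p = 8.5e-16) was close to that of Nr1d1. Gene models of 4 other members also overlap neighbours in RefSeq, over whole gene spans with introns. These stretches are 31678 and 16212 bases for 2 long non-coding RNA genes at Clock, 17565 bases for 1 at Per2, 8792 bases for 1 at Cry2 and 19662 bases for a protein-coding model at Cry1. Those neighbours were not analysed here, and their part in the values of Clock, Per2, Cry1 and Cry2 was not tested.

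The outputs Dbp and Tef rose as well. Dbp (ENSRNOG00000021027), a factor whose RNA follows the activity of CLOCK and BMAL1 in many tissues, had 16.4, 17.7 and 18.6 normalized CPM in the controls and 35.9, 35.5 and 36.9 in C6-AQP1. Its log2FC was 1.02 ± 0.05 (SE, edgeR adjusted p = 4.4e-14). Dbp lay just inside the 2-fold threshold and fell to 0.99, just outside it, without C6 control replicate 1, while its call at an adjusted p under 0.05 held. Tef (ENSRNOG00000019383), the thyrotroph embryonic factor, had 65.2, 67.4 and 68.8 normalized CPM in the controls and 105, 106 and 107 in C6-AQP1. The groups were apart, with a log2FC of 0.66 ± 0.03 (SE, edgeR adjusted p = 6.9e-15).

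**Figure D2:**
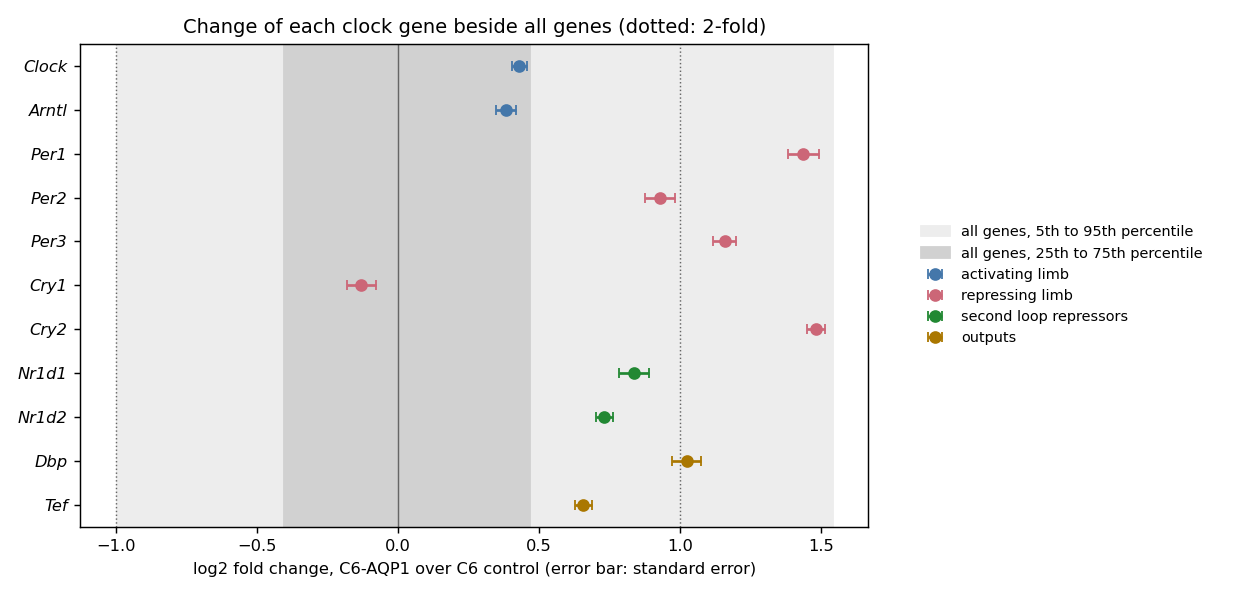
Log2 fold change of each clock gene and Tef (points, error bars give the standard error) beside the spread of all 12121 genes (dark band for the 25th to 75th percentile, light band for the 5th to 95th), with dotted lines at 2-fold. Clock and Arntl lie inside the dark band at 0.43 and 0.38, Cry1 lies at -0.13, and Per1, Per3, Cry2 and Dbp lie beyond 2-fold.

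Set side by side, the limbs had different medians, and the repressing limb held both the largest rise and the fall of Cry1. The median log2FC was 0.41 over Clock and Arntl, 1.16 over the 5 Per and Cry genes (1.30 without Cry1) and 0.78 over Nr1d1 and Nr1d2. Within each library, the mean log2 CPM of the 5 Per and Cry genes less that of Clock and Arntl was 0.57 higher in C6-AQP1 cells, with SDs of 0.04 in the controls and 0.02 in C6-AQP1 (n = 3). Without Cry1 this difference was 0.85. It was 0.37 for Nr1d1 and Nr1d2 and 0.44 for Dbp and Tef, each against Clock and Arntl. These values are a description of a chosen list and were not tested.

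Ratios of genes in the same library do not depend on how libraries are scaled, and 12 pairs were compared. The log2 ratio of Cry2 to Cry1 was 1.62 higher in C6-AQP1 cells (standard error 0.03), or 3.07-fold on the linear scale. On the same scale Per1 to Arntl was 1.06 (standard error 0.05) higher, Dbp to Arntl 0.65 (standard error 0.05), Nr1d1 to Arntl 0.43 (standard error 0.08) and Tef to Arntl 0.28 (standard error 0.03). Cry1 to Arntl was the exception, with a difference of -0.52 (standard error 0.05). Within the Per family the ratio of Per2 to Per1 differed by -0.52 (standard error 0.06), that of Per3 to Per1 by -0.28 (standard error 0.09) and that of Per3 to Per2 by 0.24 (standard error 0.07). The ratio of Dbp to Tef differed by 0.38 (standard error 0.03).

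In these 10 ratios the libraries of the groups did not overlap, and the exact two-sided permutation test gave p = 0.10 for each, the smallest that 3 against 3 libraries allow (adjusted p = 0.12 over the 12 pairs), so that no pair could pass 0.05. The groups overlapped for Clock to Arntl, with a difference of 0.05 (standard error 0.04, p = 0.40 by the exact permutation test), and for Nr1d2 to Nr1d1, with -0.09 (standard error 0.06, p = 0.30 by the exact permutation test). With this smallest p the test could not set any of the 12 pairs apart, and it does not show that the changes within these 2 pairs were equal.

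**Figure D3:**
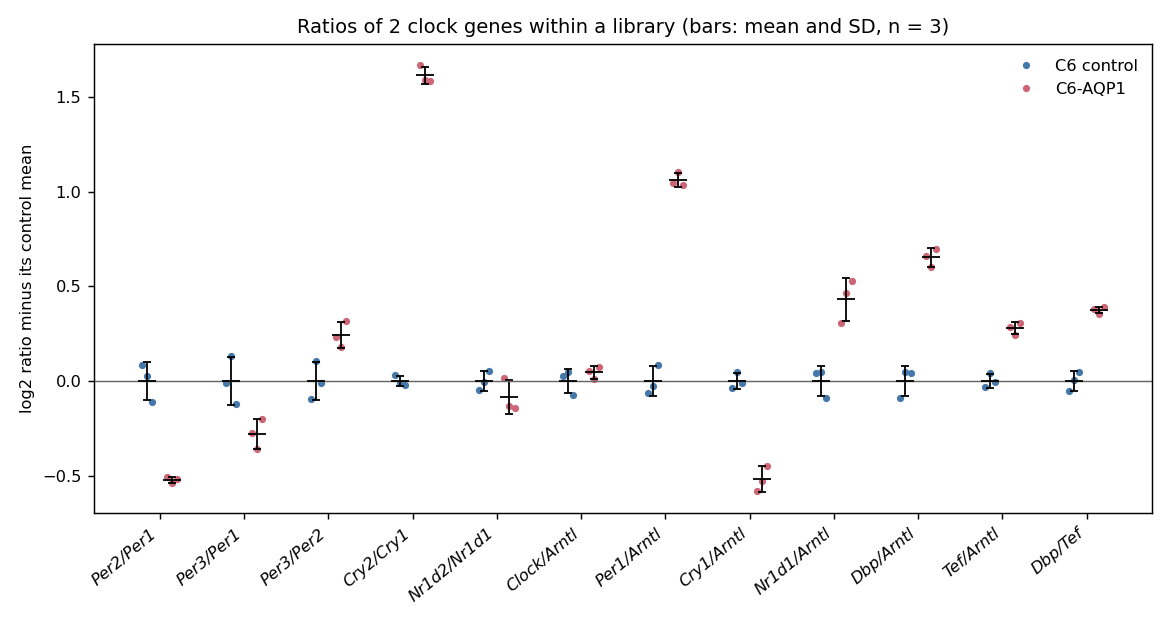
Log2 ratio of the normalized CPM of 2 genes in the same library, drawn relative to the control mean of that pair, with blue points for C6 control, red points for C6-AQP1, and black bars for the mean and SD of 3 libraries. Cry2 to Cry1 stands highest at 1.62, Per2 to Per1 and Cry1 to Arntl lie at -0.52, and Clock to Arntl and Nr1d2 to Nr1d1 overlap between the groups.

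Around the 10 members, a wider list of 59 genes of the clock pathway had 58 measured genes, of which 30 rose, 20 fell and 8 passed in neither direction, beside the 40.8% and 40.7% of all genes given above. The median log2FC was 0.09 over the wider list and 0.00 over all genes. Above 2-fold, 5 rose and 3 fell, beside 9.74% and 4.35% of all genes, so these counts are near what all genes showed. Both activator paralogues rose. Npas2 and Arntl2, paralogues of Clock and Arntl, had log2FC values of 0.39 and 0.25 (edgeR adjusted p = 8.8e-06 and 0.0096), which are as small as those of Clock and Arntl themselves. Rora, which encodes a ROR receptor that activates Arntl, went from 2.33 ± 0.159 to 5.99 ± 0.456 normalized CPM (SD, n = 3), a log2FC of 1.37 (edgeR adjusted p = 1.4e-09). Rorb was not analysed here.

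Among the PAR bZIP factors, Hlf had 6, 9 and 19 counts in the control libraries and 48, 72 and 87 in C6-AQP1. The counts were low but apart, with a log2FC of 2.90 ± 0.28 (SE, edgeR adjusted p = 3.5e-09). Hlf averaged 0.272 normalized CPM in the controls and 2.09 in C6-AQP1. The authors kept genes expressed in either group, so Hlf may have entered only through its higher C6-AQP1 level. Its rise would then be partly set by that filter. The same may hold for Rora above and for Bhlhe41 and Ppara below, which were also low in the controls. Nfil3, which encodes the repressor E4BP4 of the same D-boxes, moved the other way. It had 25.6, 25.3 and 25.5 normalized CPM in the controls and 16.8, 15.8 and 16.2 in C6-AQP1, a log2FC of -0.65 ± 0.05 (SE, edgeR adjusted p = 2.7e-10). Dbp, Tef and, at low counts, Hlf thus rose while Nfil3 fell. A link between these changes was not tested.

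Of 4 further repressors, 3 rose and 1 fell, beside 40.8% and 40.7% of all genes. Bhlhe41 (DEC2), which competes for E-boxes, went from 1.20 ± 0.210 to 3.39 ± 0.483 normalized CPM (SD, n = 3), a log2FC of 1.55 (edgeR adjusted p = 5.6e-08). Cipc, an inhibitor that binds CLOCK, had a log2FC of 0.86 (edgeR adjusted p = 3.9e-16) and Ciart, the repressor CHRONO, one of 0.56. Bhlhe40 (DEC1) had -0.10 and was the member that fell.

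Genes for the enzymes that modify clock proteins went both ways. As the background for the counts of each role, 40.8% of all genes rose and 40.7% fell. Of 13 kinases and phosphatases 3 rose and 7 fell, while 3 were not called. The casein kinase genes Csnk1d and Csnk1e, whose products phosphorylate the PERIOD proteins, had log2FC values of -0.01 and 0.04 (edgeR adjusted p = 0.62 and 0.30). Ppp1ca, a catalytic subunit of protein phosphatase 1, and Csnk2b, the regulatory subunit of casein kinase 2, had -0.97 and -0.60 (edgeR adjusted p = 5.5e-21 and 6.4e-15). Among 8 ubiquitin ligase and protease genes 5 rose and 3 fell. Rbx1 and Skp1, shared subunits of the ligase complex, had log2FC values of -1.13 and -0.57 (edgeR adjusted p = 4.2e-11 and 1.2e-16). The largest rises of these roles were smaller, with 0.37 for the kinase gene Gsk3b and 0.31 for the ligase gene Fbxl21 (edgeR adjusted p = 5.5e-11 and 2.1e-06).

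The 13 cofactor and chromatin genes were evenly divided, with 6 rises and 6 falls, close to the 40.8% and 40.7% of all genes, which are also the background of the 2 roles that follow. Kmt2a, a histone methyltransferase that works with CLOCK and BMAL1, went from 109 ± 0.760 to 246 ± 9.92 normalized CPM (SD, n = 3), a log2FC of 1.19 (edgeR adjusted p = 6.0e-20). Tipin, the partner of Timeless at replication forks, had -1.18 and Nono, an RNA-binding partner of the PERIOD proteins, -0.50 (edgeR adjusted p = 1.3e-10 and 8.2e-16). Of 6 genes of the cAMP and CREB input, through which Per1 is induced, 4 rose and none fell. Creb1 and the coactivator Crtc3 had log2FC values of 0.43 and 0.46 (edgeR adjusted p = 5.7e-06 and 5.3e-06), while Crem and Sik1, themselves CREB targets, had 0.06 and -0.03 (edgeR adjusted p = 0.38 and 0.74). The part of this input in the rise of Per1 was not tested. Among 8 known targets of the clock 4 rose, 2 fell and 2 did not pass. Ppara, a lipid-sensing receptor, and Por, the electron donor of cytochrome P450 enzymes, had 1.10 and 0.34 (edgeR adjusted p = 1.8e-06 and 3.7e-10). Ppara was low, with 1.80 ± 0.275 normalized CPM in the controls and 3.89 ± 0.445 in C6-AQP1 (SD, n = 3). Nampt, the rate-limiting enzyme of NAD salvage, went from 321 ± 6.22 to 147 ± 8.56 normalized CPM (SD, n = 3), a log2FC of -1.13 (edgeR adjusted p = 2.3e-12).

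**Figure D4:**
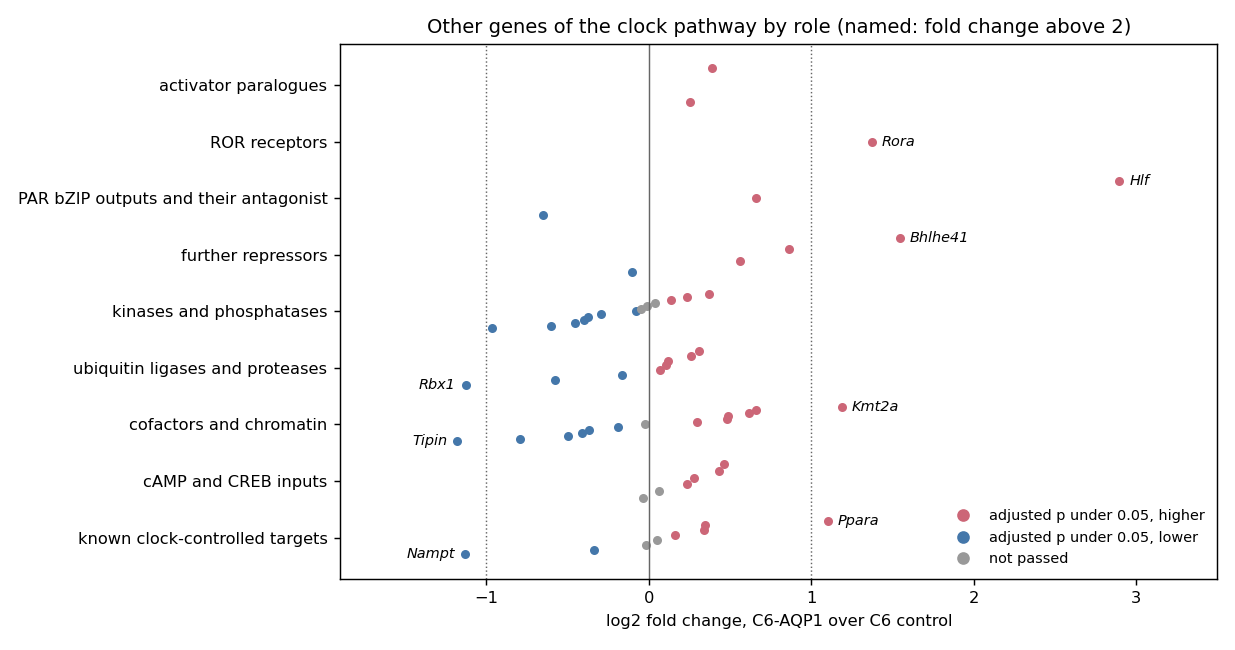
Log2 fold changes of the 58 measured genes of the wider clock list by role, in red for genes that rose, blue for genes that fell (adjusted p under 0.05) and grey for the 8 that did not pass, with dotted lines at 2-fold. Hlf, Bhlhe41, Rora, Kmt2a and Ppara lie above 2-fold and Tipin, Nampt and Rbx1 below it, while kinases and cofactors lie on both sides of 0.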

How the data were processed

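Gene expression was measured by RNA-seq of cDNA that had been amplified from total RNA, in 3 C6-AQP1 and 3 C6 control libraries. Per the methods and the processing notes of the submitters, the authors used FastQC (0.11.2), Trimmomatic (0.36), STAR (2.5.1b) on the rn6 rat genome and RSEM (1.2.29), and deposited expected counts per gene, which are unnormalized estimates with some fractional values. Reads shared by near-identical copies are split by RSEM, so genes with processed copies are less certain. Which annotation was used is not stated in these sources. Genes with a low mean TPM in both groups had been left out by the authors, so no filter was added. A gene low in the controls, such as Hlf, Rora, Bhlhe41, Ppara, Slc1a3 or Snap25, may have been kept only for its level in C6-AQP1.

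The 12121 genes were rounded to whole counts, scaled by TMM and compared in edgeR 4.0.16 (R 4.3.3) by the robust quasi-likelihood test without covariates, with Benjamini-Hochberg adjustment over all genes. A gene rose or fell at an adjusted p under 0.05. The standard error was taken from the log2 fold change and its test statistic. Ratios were taken on log2 CPM (prior count 0.5) and compared by exact permutation in SciPy 1.17.1. Transcript lengths were not used, so levels were not compared between genes. DESeq2 1.42.0 and limma 3.58.1 (voom) served as alternatives. In simulated counts for this comparison edgeR called 89.6% of 67 genes changed 1.5-fold, 98.5% of 67 changed 2.5-fold and 100% of 66 changed 4-fold. It also called 17 unchanged genes among 12121. The changed genes went in random directions, were few among all genes, and came from those with more counts in the controls. In the real data 40.8% of all genes rose and 40.7% fell. The simulated rates therefore do not cover so broad a change, nor low genes such as Hlf.

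Replicates of a group differed by more than sampling noise (chi-square divided by its degrees of freedom, 2.15 to 4.29), and each library was counted separately. This does not show that the libraries came from separate cultures. The common coefficient of variation between libraries in edgeR's fit was 2.97%, a spread that may be technical. Library totals of 19054244 to 52725870 counts gave 318 or more counts for every member in every library. The members and lists were chosen with earlier results of these data known. Of the wider clock list, 2 genes are not reported here and are left out of its counts. The wider list names all genes changed above 2-fold and the 2 with the smallest adjusted p in each role. Other genes named from it were chosen after their values were seen, as were Thra and the marker genes printed by name.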

Additional observations from a re-analysis of the deposited data

How the results depend on the processing

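Under 15 alternatives (DESeq2, limma-voom, other factors, a filter, each library left out, the replicate block, and, chosen after seeing the data, both replicate 1 libraries left out and thinning to the smallest total), 9 members rose in every one. The fall of Cry1 was not called (count 0 in place of 1) with DESeq2, library totals, upper-quartile factors and in 3 of the 6 fits without 1 library, which gave 0 to 1 falls, and its direction held in all 15. The median log2 fold change of Clock and Arntl was 0.46 with library totals, 0.44 with upper-quartile factors and 0.44 after thinning, and 0.40 to 0.42 with 1 library left out. That of the Per and Cry genes was 1.21 with library totals and 1.14 to 1.20 with 1 library left out. The median of all genes moved to at most 0.05. The members above 2-fold numbered 3 in place of 4, without Dbp, when C6 control replicate 1 or both replicate 1 libraries were left out. The number of rises over all genes ran from 4703 to 5363 and of falls from 4540 to 4988, and in the wider list from 29 to 31 and from 18 to 20. In the 12 ratios, a prior count of 2 and leaving out each library kept every direction.

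The groups share replicate numbers, but the deviations of same-numbered libraries correlated at only 0.135, -0.0701 and 1.7e-04 over 11327 genes, and C6-AQP1 replicate 2 correlated best with C6 control replicate 3 (0.223). The numbers were therefore not taken as pairs. With the replicate block 9 members rose and 1 fell as before, and Dbp and Tef had log2FC values of 1.02 and 0.66.

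Depth limits the low genes: Hlf had as few as 6 counts in a library, and its fold change is uncertain. Bhlhe41, Ppara and Rora had as few as 32, 41 and 52 counts in a library, so their fold changes are less certain than those of the members.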
